A study of Mus musculus with 10 samples.

Results

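The Reelin pathway genes are the 8 genes Reln, Vldlr, Lrp8, Dab1, Fyn, Pafah1b1, Cdk5 and Cdk5r1, which were taken by symbol from a mouse expression matrix of 23230 features. All 8 symbols were found in the matrix, which holds 10 RNAseq libraries. The study followed cortical astrocytes through experimental glioma formation. The 3 AstroEGFR libraries came from 3 batches of astrocytes of C57BL/6 cerebral cortex at day P5, p16/p19 KO (the Ink4a/Arf locus) and infected with a retroviral vector for human EGFRvIII, a constitutively active EGF receptor. The 4 PT libraries came from glioma propagating cells, cultured from tumours that AstroEGFR cells had formed in nude mice, and by the study's account PT1 and PT4 go back to batch 1, PT2 to batch 2 and PT3 to batch 3. The 3 AstroEGFR_Zfp423 libraries came from the same 3 batches after a further vector for Zfp423, a zinc finger transcription factor. By the labels and the study's account, loss of p16/p19 and the EGFRvIII vector were thus common to all 10 libraries, and there was no library of normal astrocytes. AstroEGFR cells were grown with serum and PT cells without it, so the growth medium and passage through a tumour cannot be told apart. Each library is 1 culture of a mixed cell population, and in such bulk RNA fewer cells of a type and less RNA per cell cannot be told apart.

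Reelin is a secreted protein that guides migrating neurons into layers of the cortex, where Cajal-Retzius cells and later interneurons are its best known sources. It binds the lipoprotein receptors Vldlr and ApoER2 (the product of Lrp8), which lets the kinases Fyn and Src phosphorylate the adaptor Dab1. Phosphorylated Dab1 recruits Crk proteins and PI3 kinase and is then degraded through Cul5. Pafah1b1 (Lis1) links the pathway to dynein and microtubules, and the kinase Cdk5 with its activator p35 (Cdk5r1) acts beside it in neuronal migration. The 2 receptors also bind ApoE, clusterin and thrombospondin-1, and Fyn has further roles in the oligodendrocyte lineage and in integrin signalling.

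Several libraries stood apart, and the values of the pathway genes are given below by library for that reason. The astrocyte marker Gfap was between 47.3 and 725 FPKM (sequenced fragments scaled for transcript length and library size) in the AstroEGFR libraries, but at 7.94 and 1.11 FPKM in AstroEGFR_Zfp423 of batches 1 and 2 and at 5.95 FPKM in PT2. The 8 astrocyte markers summed to 509 to 1048 FPKM in AstroEGFR and to 699 FPKM in PT2. In PT2 4 of the 8 were higher and 4 lower than in AstroEGFR of its batch. The sum was 199 and 59.4 FPKM in AstroEGFR_Zfp423 of batches 1 and 2 and 352 FPKM in PT3. The 8 microglia markers summed to 897 and 578 FPKM in AstroEGFR_Zfp423 of batches 1 and 2 and to at most 39.3 FPKM in each of the other 8 libraries. The 6 fibroblast or meninges markers summed to 5130 FPKM in AstroEGFR of batch 3 and to 4484 and 6222 FPKM in AstroEGFR_Zfp423 of batches 1 and 2. FPKM hold no counts, so depth is unknown, but the 5th percentile of values above 0 was 0.0986 and 0.0768 FPKM in AstroEGFR and PT of batch 3 against 0.0124 to 0.0203 FPKM in the other 8, which places low values of those libraries on a coarser scale. Features named as small RNA took from 0.199% to 48.6% of the FPKM of a library. Zfp423 was at 4.30, 3.25 and 3.48 FPKM in AstroEGFR and at 15.7, 9.73 and 105 FPKM in AstroEGFR_Zfp423, above its control in each batch. Cdkn2a, the p16/p19 gene, was listed between 3.96 and 130 FPKM in the 10 libraries, and a value per gene does not show which exons it comes from. Egfr was at 7.81, 362 and 63.0 FPKM in AstroEGFR, at 23.7, 134, 128 and 18.9 FPKM across PT1 to PT4, with 116, 82.2 and 343 FPKM for AstroEGFR_Zfp423. How far reads of the human EGFRvIII vector count toward mouse Egfr was not tested.

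Among the pathway genes, the kinase Fyn and the receptor Vldlr were the members with non-overlapping, higher values in PT than in AstroEGFR, and Fyn passed the test. With added Zfp423 Vldlr was higher and Lrp8 lower in each of the 3 batches, although no feature of the matrix passed the test in that comparison. The ligand Reln was close to 0 in every library, and Dab1 was above 1 FPKM in 2 of the 4 PT libraries only. The values of Lrp8, Pafah1b1, Cdk5 and Cdk5r1 overlapped between PT and AstroEGFR.

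PT and AstroEGFR were compared by limma on log2(FPKM + 1) over 12261 features whose mean in the 7 libraries reached 1 FPKM, with Benjamini-Hochberg adjustment and a threshold of 0.05. 7 members passed the filter on low values and Reln did not. Dab1 passed through 2 PT libraries alone and is described without a test. Of the other 6 Fyn was called, where 152 of all features tested (1.24%) were. Fyn and Vldlr were higher in every PT library than in any AstroEGFR library, as were 6.95% of the features tested. Both also had an unadjusted p under 0.05, as had 13.6% of the features tested. With the astrocyte batch as a replicate block, Vldlr was called as well, at an adjusted p of 0.0331 in limma, where 3.87% of the features tested were called.

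Reln, the ligand, was at 0.0190, 0.0223 and 0.316 FPKM in AstroEGFR of batches 1, 2 and 3. It was at 0.179, 0.372, 0 and 0.191 FPKM across PT1 to PT4, with 0.0288, 0.00811 and 0.00508 FPKM for AstroEGFR_Zfp423. No library reached 1 FPKM, and the 3 groups overlapped. Markers of the cell types known for Reelin were read beside it. The 6 Cajal-Retzius markers summed to at most 0.108 FPKM in AstroEGFR, 3.69 FPKM in PT and 0.466 FPKM in AstroEGFR_Zfp423, with Lhx5 at 0 in every library and Trp73 at most 0.0420 FPKM. The highest of those sums, in PT2, was mostly Calb2 at 2.64 FPKM. The 8 interneuron markers summed to 10.99 to 18.4 FPKM in AstroEGFR, 4.64 to 27.7 FPKM in PT and 4.57 to 11.8 FPKM in AstroEGFR_Zfp423, and 4, 5 and 3 of them reached 1 FPKM in at least 1 library of the group. Gad2, a GABA-synthesizing enzyme, was highest in PT3 (17.8 FPKM) and AstroEGFR of batch 2 (9.35 FPKM), and Gad1 in PT2 (6.26 FPKM), whereas Slc32a1, the vesicular GABA transporter, did not exceed 0.00428 FPKM. The part of such cells in the Reln values was not tested.

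Vldlr, the very low density lipoprotein receptor, was at 2.03, 3.22 and 8.81 FPKM in AstroEGFR. In PT1 to PT4 it was at 11.7, 40.0, 35.1 and 26.8 FPKM. In AstroEGFR_Zfp423 it was at 9.64, 26.1 and 52.2 FPKM. Every PT and every AstroEGFR_Zfp423 library was thus above every AstroEGFR library, and the PT and AstroEGFR_Zfp423 ranges overlapped. The log2 fold change of PT against AstroEGFR was 2.42 (SE 0.53, 95% confidence interval 1.19 to 3.66), with a limma adjusted p of 0.0879 and an exact permutation p of 0.0571 (two-sided, 35 splits). Against AstroEGFR of its own batch, each PT library held more Vldlr, by 5.75-fold and 13.2-fold in PT1 and PT4, 12.4-fold in PT2 and 3.98-fold in PT3. The log2 fold change was between 2.06 and 2.91 in 16 alternatives, at limma adjusted p-values of 0.0331 to 0.323, and passed the test in 1 of them, the replicate block. It was 2.77 without batch 3 (limma adjusted p = 0.163), whose AstroEGFR and PT libraries had the coarser low values, and 2.10 without batch 2 (limma adjusted p = 0.323).

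Lrp8, which encodes the receptor ApoER2, was at 8.59, 9.54 and 6.74 FPKM in AstroEGFR. In PT1 to PT4 it was at 20.4, 11.5, 8.80 and 17.9 FPKM. In AstroEGFR_Zfp423 it was at 3.48, 4.88 and 1.86 FPKM. The AstroEGFR_Zfp423 libraries were the lowest without overlap, whereas PT3 fell within the AstroEGFR range and the other 3 PT libraries were above it. The difference of PT from AstroEGFR was 0.69 on the log2 scale (SE 0.33, interval -0.06 to 1.45) and did not pass the test (limma adjusted p = 0.413).

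**Figure D1:**
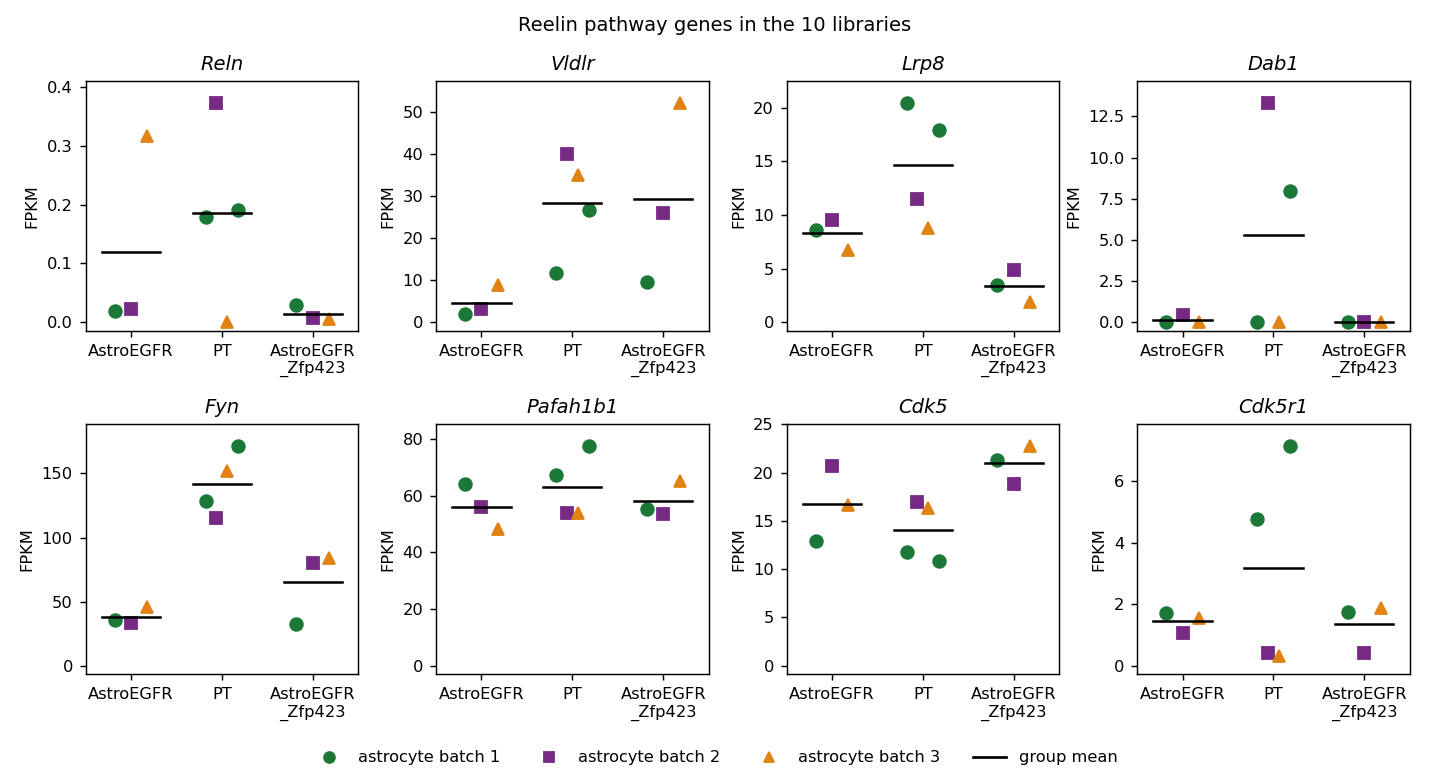
FPKM of the 8 Reelin pathway genes (1 panel each, linear axis) in 3 AstroEGFR, 4 PT and 3 AstroEGFR_Zfp423 libraries. Points are libraries, marked by astrocyte batch, and black bars are group means. Vldlr is lowest in the 3 AstroEGFR libraries (2.03 to 8.81 FPKM), Lrp8 is lowest in the 3 AstroEGFR_Zfp423 libraries (1.86 to 4.88 FPKM), and Fyn is highest in the 4 PT libraries (115 to 171 FPKM).

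FPKM are per length of transcript, so the levels of the 2 receptors can be set side by side within a library. Their sum was 13.0 ± 2.48 FPKM in AstroEGFR (SD, n = 3) and 43.0 ± 8.05 FPKM in PT (SD, n = 4). The sums did not overlap, at an exact permutation p of 0.0286 (two-sided), the smallest that 3 against 4 libraries allow. In AstroEGFR_Zfp423 the sum was 32.7 ± 20.5 FPKM (SD, n = 3), at an exact permutation p of 0.2 against AstroEGFR, where 0.1 is the smallest possible. Vldlr made up 19.1%, 25.3% and 56.7% of the sum in AstroEGFR, and 36.4%, 77.7%, 79.9% and 60.0% in PT1 to PT4. Lrp8 was therefore the more abundant receptor message in AstroEGFR of batches 1 and 2 and in PT1, and Vldlr in the other 4 of these libraries. The mean share was 33.7 ± 20.1% in AstroEGFR and 63.5 ± 20.2% in PT (SD, n = 3 and 4), a difference that did not exceed the spread by the exact permutation test over unpaired libraries (two-sided p = 0.114). Within batches the share was higher in each of the 4 PT libraries than in AstroEGFR of its batch, by 34.9 percentage points in the mean over the 3 batches, for which 3 pairs cannot give an exact two-sided p below 0.25.

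Dab1, the adaptor that both receptors use, was at 0.0513, 0.422 and 0 FPKM in AstroEGFR. It was at 13.3 FPKM in PT2 and 7.96 FPKM in PT4, but at 0.0152 FPKM in PT1 and 0 in PT3. In AstroEGFR_Zfp423 it was at most 0.0184 FPKM. The high libraries came from different astrocyte batches, and PT1, from the same batch as PT4, was among the low ones. PT2 and PT4 also had the highest sums of Cajal-Retzius markers, at 3.69 and 1.51 FPKM. The 8 neuron markers summed to 90.4 and 171 FPKM in PT2 and PT4, to 94.9 and 52.0 FPKM in PT1 and PT3, and to 62.1 to 86.6 FPKM in AstroEGFR. 4 of the 8 were higher in PT2 and 6 in PT4 than in AstroEGFR of the same batch. The microtubule protein gene Mtap2 was highest in PT2 and PT4, at 59.8 and 59.3 FPKM against at most 32.3 FPKM in the other 8 libraries. Snap25 was highest in the same libraries, at 0.108 and 0.260 FPKM against at most 0.0794 FPKM elsewhere, and Syp was highest in PT4, at 4.11 FPKM. Tubb3 was at 29.7 FPKM in PT2 and 99.4 FPKM in PT4, against 67.7 FPKM in PT1, and Nefl was at 0 in PT2 and highest among PT in PT3, at 34.5 FPKM. Stmn2 was at 0 and 0.00649 FPKM in PT2 and PT4 but at 3.04 and 12.3 FPKM in AstroEGFR of batches 1 and 3, and Rbfox3, a marker of mature neurons, was at most 0.0208 FPKM in any library. The part of other cells in the Dab1 values was not tested.

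Fyn, the Src family kinase that phosphorylates Dab1, was at 35.3, 33.7 and 45.5 FPKM in AstroEGFR. In PT1 to PT4 it was at 128, 115, 152 and 171 FPKM. In AstroEGFR_Zfp423 it was at 32.7, 80.2 and 83.8 FPKM. All 4 PT libraries were above the other 6. Fyn rose in PT by 1.86 on the log2 scale (SE 0.24, a fitted fold of 3.64), with a limma adjusted p of 0.0175. The exact permutation p was 0.0286 (two-sided), the smallest possible. Within batches the ratio to AstroEGFR was 3.64 and 4.85 for PT1 and PT4, 3.43 for PT2 and 3.35 for PT3. The size of the difference held under the alternatives (log2 fold change 1.77 to 1.99), but the call was lost in 8 of 16. These were the fits without any 1 of the 3 AstroEGFR libraries or PT4, without batch 2 or batch 3, with PT1 and PT4 averaged, and with all 10 libraries, at limma adjusted p-values of up to 0.102.

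Because Fyn is prominent in the oligodendrocyte lineage, its level was read beside the 7 markers of that lineage. They summed to 223, 130 and 66.8 FPKM in AstroEGFR and to 1357, 145, 131 and 1689 FPKM across PT1 to PT4. The sums of PT2 and PT3 lay within the AstroEGFR range, but each PT library was above AstroEGFR of its own batch. Olig1 and Olig2 made up 79.6% to 99.1% of the sums of these 7 libraries, and of the 7 markers 5, 4, 3 and 7 were higher in PT1 to PT4 than in AstroEGFR of the same batch. Olig2 was at 72.9 FPKM in PT2 and at most 42.9 FPKM in AstroEGFR, whereas Olig1 in PT2 was at 69.3 FPKM against 81.8 FPKM in its batch. Pdgfra was at 1.25, 0.394, 0.218 and 41.9 FPKM across PT1 to PT4, against 1.48 to 5.67 FPKM in AstroEGFR. Sox10 was at 8.18, 0.103, 0 and 117 FPKM, against at most 0.0757 FPKM, and Cspg4 at 17.98, 1.41, 0.0295 and 64.5 FPKM, against 1.12 to 7.08 FPKM. These markers were thus high in PT4, Sox10 and Cspg4 also in PT1, and Pdgfra and Cspg4 were lowest in PT3. The part of such cells in the Fyn values was not tested.

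The other Src family kinases were read beside Fyn. Fyn took 34.9%, 36.2% and 48.1% of the summed FPKM of the 8 kinases in AstroEGFR and 74.5%, 58.7%, 75.3% and 77.2% in PT1 to PT4. The mean share was 39.7 ± 7.27% and 71.4 ± 8.58% (SD, n = 3 and 4, exact permutation p = 0.0286, two-sided). The other 7 kinases together were at 58.1 ± 8.45 FPKM in AstroEGFR and 56.4 ± 16.8 FPKM in PT (SD, n = 3 and 4, exact permutation p = 0.971, two-sided). Src itself was at 38.4, 31.6 and 22.8 FPKM in AstroEGFR and at 19.8, 14.5, 7.43 and 28.1 FPKM in PT. Its log2 fold change was -0.90 with an SE of 0.43 and did not pass the test (limma adjusted p = 0.419).

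Lyn, another kinase of the family, was at 2.72 to 6.11 FPKM in AstroEGFR and at 7.61, 54.1, 23.3 and 9.57 FPKM across PT1 to PT4. The ranges did not overlap, with a log2 fold change of 1.77, and Lyn passed the limma test only with the replicate block (adjusted p = 0.294 without and 0.0397 with it). Lyn is also expressed by microglia, whose 8 markers summed to 6.44 to 39.3 FPKM in AstroEGFR and to 0.219 to 2.55 FPKM in PT. In PT those markers were lower and Lyn was higher, and the part of microglia in the Lyn values was not tested.

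**Figure D2:**
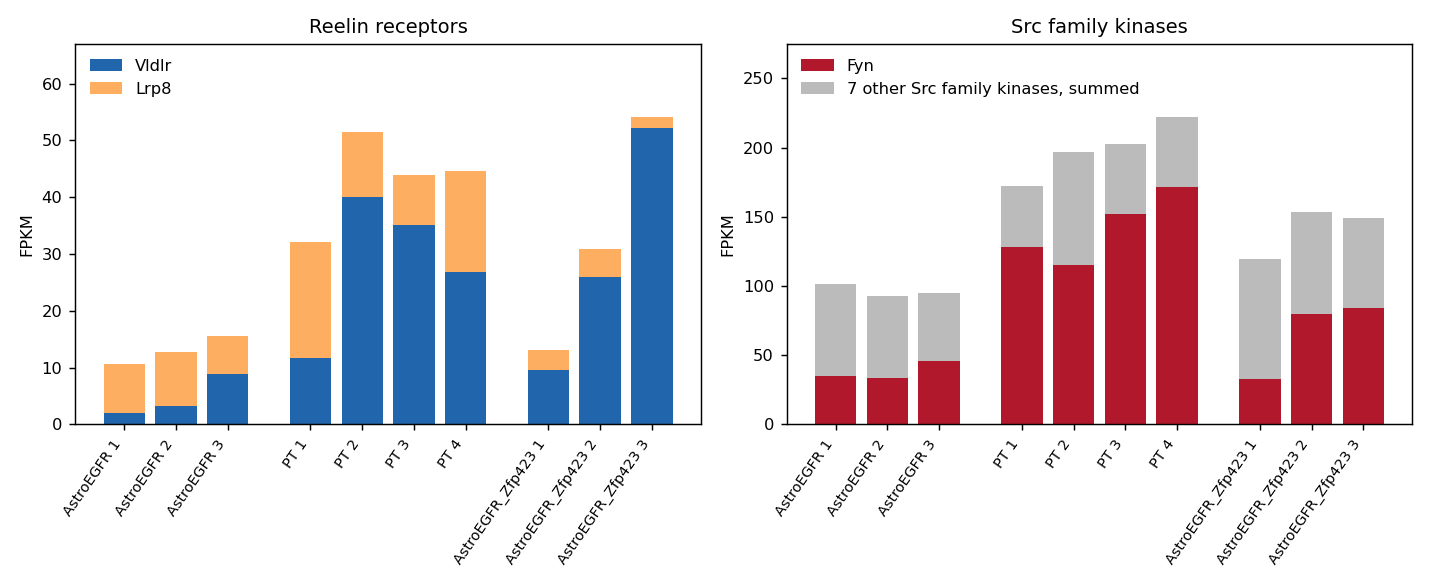
Stacked FPKM by library (linear axes from 0) of the receptors Vldlr and Lrp8, left, and of Fyn and the 7 other Src family kinases summed, right. The receptor sum is 10.6 to 15.6 FPKM in AstroEGFR and 32.1 to 51.5 FPKM in PT, and Vldlr takes 73.5% to 96.6% of it in AstroEGFR_Zfp423. Fyn takes 34.9% to 48.1% of its family in AstroEGFR and 58.7% to 77.2% in PT.

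Pafah1b1 (Lis1) was among the most abundant members and the steadiest. It was at 64.2, 56.1 and 48.4 FPKM in AstroEGFR, at 67.5, 54.0, 53.8 and 77.6 FPKM across PT1 to PT4, with 55.4, 53.5 and 65.3 FPKM for AstroEGFR_Zfp423. The 3 ranges overlapped. Its log2 fold change was 0.16 in PT (95% interval -0.39 to 0.71) and 0.05 in AstroEGFR_Zfp423 (-0.61 to 0.71), both against AstroEGFR.

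Cdk5 was at 13.0, 20.7 and 16.6 FPKM in AstroEGFR, at 11.8, 17.0, 16.4 and 10.9 FPKM across PT1 to PT4, with 21.3, 18.8 and 22.7 FPKM for AstroEGFR_Zfp423. Each PT library held slightly less than AstroEGFR of its batch, with a log2 fold change of -0.24 (interval -0.86 to 0.38, limma adjusted p = 0.764). Cdk5 overlaps Abcb8 in the RefSeq annotation, and whether counting used the strand is not given in the sources used here. Its activator gene Cdk5r1 was at 1.72, 1.05 and 1.54 FPKM in AstroEGFR and at 4.76, 0.426, 0.324 and 7.14 FPKM across PT1 to PT4. The tumour cultures of batch 1 were thus above all AstroEGFR libraries, and those of batches 2 and 3 below all of them. The message of the activator amounted to 40.4% and 65.7% of that of Cdk5 in PT1 and PT4, to 2.51% and 1.98% in PT2 and PT3, and to 5.09% to 13.3% in AstroEGFR. Over the 4 PT libraries the log2 fold change of Cdk5r1 was 0.34 with an SE of 0.71 (limma adjusted p = 0.889). PT1 and PT4 were also the libraries with oligodendrocyte lineage markers at 1357 and 1689 FPKM in sum, and the part of such cells in the Cdk5r1 values was not tested.

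Added Zfp423 was examined by limma with the astrocyte batch as a block, over 12366 features of which 6 members were part. 0 features passed the adjusted threshold of 0.05 (0%), and 913 (7.38%) had an unadjusted p under 0.05. Vldlr and Lrp8 were 2 of the 6 members at that unadjusted level. Vldlr was 4.75-fold higher than in AstroEGFR in batch 1, 8.09-fold in batch 2 and 5.93-fold in batch 3. It was thus higher in all 3 batches, as were 16.3% of the features tested. These ratios, and the fit with the block, rest on the batch numbers of the labels. Over all features, the deviations of AstroEGFR_Zfp423 of batch 2 correlated best with those of AstroEGFR of batch 3 (0.308, against -0.111 in its own batch), and those of batch 3 with AstroEGFR of batch 2 (0.224, against -0.262). Over every pair of 1 library from each group the Vldlr ratio ran from 1.09 to 25.7. Its log2 fold change was 2.31 (SE 0.29, interval 1.53 to 3.09), which ranked 10 of 12366 by p, with an unadjusted p of 0.00102 and a limma adjusted p of 0.628. Without the block the SE was 0.69, the interval 0.65 to 3.97, the unadjusted p 0.0137, the rank 138 and the limma adjusted p 0.728, and 5.97% of the features tested had an unadjusted p under 0.05.

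Lrp8 differed in the other direction. It was 2.46-fold lower in batch 1, 1.96-fold lower in batch 2 and 3.63-fold lower in batch 3, and 15.2% of the features tested were lower in all 3 batches. Its log2 fold change was -1.13 (SE 0.29, interval -1.91 to -0.34), with an unadjusted p of 0.0158 and a limma adjusted p of 0.628, and without the block the interval was -1.96 to -0.29 and the unadjusted p 0.0162. Vldlr came to 73.5%, 84.2% and 96.6% of the receptor sum in the 3 batches, above each AstroEGFR library, at an exact permutation p of 0.1, the smallest that 3 against 3 libraries allow. For both receptors AstroEGFR and AstroEGFR_Zfp423 did not overlap, so the direction is the same whichever libraries are paired, with Lrp8 1.38-fold to 5.13-fold lower. Of the features tested 5.68% were higher and 5.87% lower without overlap.

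The microglia and fibroblast markers named above were high in AstroEGFR_Zfp423 of batches 1 and 2, and low in batch 3, where Csf1r was at 0.0686 FPKM, C1qa at 0 and the fibroblast markers summed to 228 FPKM. Batch 3 held the highest Vldlr, the lowest Lrp8 and the highest Zfp423 of the 3 AstroEGFR_Zfp423 libraries. It also had the largest share of small RNA (48.6%). AstroEGFR of batch 3 likewise had the highest Vldlr (8.81 FPKM) and the lowest Lrp8 (6.74 FPKM) of its group. The Vldlr ratio to the control of the same batch was largest in batch 2 (8.09), where Zfp423 was lowest (9.73 FPKM). Lrp8 was lowest against its control in batch 3 (3.63-fold lower). The part of other cells, of small RNA and of the level of Zfp423 in the receptor values was not tested.

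The other members did not share a direction with added Zfp423. Fyn was 2.38-fold higher in batch 2 and 1.84-fold higher in batch 3 but 0.924 of its control in batch 1, with a log2 fold change of 0.66 (interval -0.27 to 1.59, limma adjusted p = 0.654). The log2 fold change of Cdk5 was 0.33 (interval -0.38 to 1.04). Cdk5r1 was at 1.76, 0.415 and 1.86 FPKM, with a log2 fold change of -0.11 (interval -1.26 to 1.03). Dab1 and Reln were under the filter.

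Zfp423 is known to bind DNA at an inverted repeat of GCACCC, so the sequence ahead of the starts of the 2 receptor genes and of Fyn, the member called in PT, is shown with each GCACCC, or its reverse complement GGGTGC, in capitals. The sequences are the 250 bases before a RefSeq start, 5′ to 3′ on the strand of the gene, in build GRCm38.p6. The deposited values were made on mm9, and only gene symbols join them to these windows. 6 of the 8 members had such windows, 10 in all.
Vldlr, chr19:27216770-27217019, plus strand: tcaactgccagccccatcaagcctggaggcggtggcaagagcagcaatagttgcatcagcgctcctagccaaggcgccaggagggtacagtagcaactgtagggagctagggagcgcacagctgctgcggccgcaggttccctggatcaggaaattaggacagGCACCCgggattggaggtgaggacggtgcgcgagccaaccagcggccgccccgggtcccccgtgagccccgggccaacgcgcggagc
Lrp8, chr4:107802635-107802884, plus strand: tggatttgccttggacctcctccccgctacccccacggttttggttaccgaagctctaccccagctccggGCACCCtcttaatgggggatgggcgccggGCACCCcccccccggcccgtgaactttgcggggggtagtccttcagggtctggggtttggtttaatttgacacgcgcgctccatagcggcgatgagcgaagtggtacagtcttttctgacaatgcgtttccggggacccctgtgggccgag
Fyn, chr10:39369549-39369798, plus strand: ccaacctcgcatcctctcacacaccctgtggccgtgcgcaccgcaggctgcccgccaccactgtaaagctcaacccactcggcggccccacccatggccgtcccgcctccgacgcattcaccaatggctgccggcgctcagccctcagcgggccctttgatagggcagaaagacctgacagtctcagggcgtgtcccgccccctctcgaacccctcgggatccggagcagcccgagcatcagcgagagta
The Vldlr window held 1 match, 87 bases before the start, and 18 CpG. The window of its other start held no match and 5 CpG. The Lrp8 window held 2 matches, 180 and 151 bases before the start, also with 18 CpG, and the windows of its other 2 starts held none. The Fyn window held none. 1 of the 2 Dab1 windows held a match, 175 bases before the start, and those of Reln and Pafah1b1 held none. Of all 32851 windows of that length in the table, 13.3% held GCACCC on either strand. A match is a run of letters and not a measured site. It is a single copy of GCACCC on either strand, and the inverted repeat as a whole was not searched for. Both a receptor that was higher and one that was lower with added Zfp423 had a match.

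PT and AstroEGFR_Zfp423 share the AstroEGFR libraries as their controls, so they were also set against each other directly, in a comparison chosen after the data had been seen. 2 of 12412 features (0.0161%) were called by limma, neither of them a member. Lrp8 and Fyn were higher in every PT library than in any AstroEGFR_Zfp423 library, as were 7.23% of the features tested. The difference of Lrp8 was 1.82 on the log2 scale (SE 0.38, interval 0.93 to 2.71, limma adjusted p = 0.168, exact permutation p = 0.0286, two-sided). That of Fyn was 1.20 (SE 0.37, interval 0.33 to 2.07, limma adjusted p = 0.243). Cdk5 was lower in PT without overlap, as were 7.28% of the features tested, with a difference of -0.57 (interval -1.12 to -0.02, limma adjusted p = 0.303). The difference of Vldlr was 0.11, with an interval of -1.31 to 1.54 that leaves room for more than 2-fold in either direction.

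**Figure D3:**
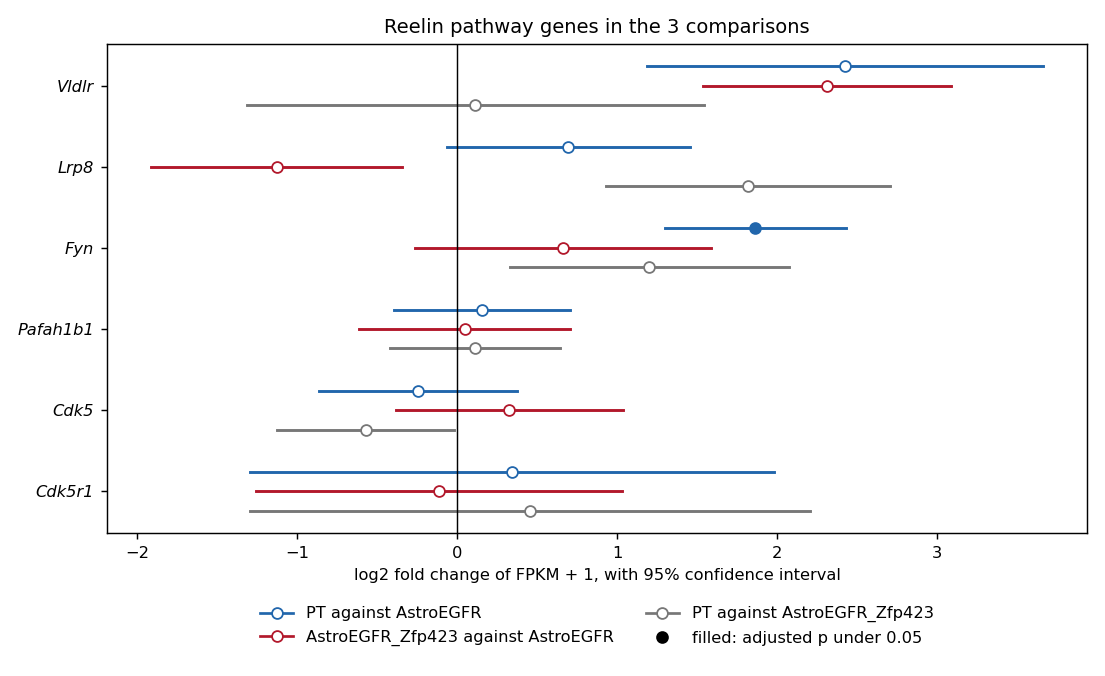
Log2 fold change of FPKM + 1 of 6 members in 3 comparisons, with 95% confidence intervals from limma (linear axis), of which AstroEGFR_Zfp423 against AstroEGFR was fitted with the batch block. Reln and Dab1 are not drawn. Filled points have an adjusted p under 0.05, which holds for Fyn in PT against AstroEGFR. Vldlr lies at 2.42 and 2.31 in the comparisons with AstroEGFR, while Lrp8 lies at 0.69 in PT and -1.13 in AstroEGFR_Zfp423.

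Ordered by mean FPKM, AstroEGFR was the lowest group for Vldlr, with PT and AstroEGFR_Zfp423 not separated. For Lrp8 the order was AstroEGFR_Zfp423, AstroEGFR and PT, with the last 2 overlapping. For Fyn it was AstroEGFR, AstroEGFR_Zfp423 and PT, with the first 2 overlapping. Across the 10 libraries, Vldlr and Fyn had a Pearson r of 0.76 on the log2 scale, Lrp8 and Cdk5 -0.83, and Pafah1b1 and Cdk5r1 0.81, and Vldlr and Lrp8 -0.18. These values describe 10 libraries of 3 groups and share their batches and depth.

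A wider set of 83 genes around the pathway, in 7 lists, was read in the same fits. In PT 74 of them were tested, and 0 were called higher and 2 lower, both in the list of receptor partners and alternative ligands, where 113 of all features tested (0.922%) were called lower. 3 of the 74 reached the filter through 1 group alone, among them Dcx and Mapt. Thbs1, thrombospondin-1, an alternative ligand of both receptors, fell from 352, 116 and 314 FPKM in AstroEGFR to 0.382, 0.986, 18.5 and 0.581 FPKM across PT1 to PT4. The log2 fold change was -6.28 (SE 0.94, limma adjusted p = 0.0274), and all 4 PT libraries were far below all AstroEGFR libraries. Itga3, the integrin alpha3 chain, fell from 58.8, 48.9 and 47.3 FPKM to 9.59, 5.43, 1.62 and 4.47 FPKM, by 3.23 on the log2 scale (SE 0.44, limma adjusted p = 0.0200). The calls of Thbs1 and Itga3 were lost in 9 and 8 of 16 alternatives, with no change of direction. Thbs1 is abundant in fibroblasts, whose 6 markers summed to 294, 502 and 5130 FPKM in AstroEGFR and to 40.3, 15.4, 370 and 11.9 FPKM in PT, and their part in its fall was not tested.

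The other ligands of the receptors did not pass the test. Clu, clusterin, was at 73.5, 33.7 and 56.3 FPKM in AstroEGFR and at 15.3, 15.7, 3.92 and 22.9 FPKM in PT, lower without overlap, as were 7.81% of the features tested (log2 fold change -1.98, limma adjusted p = 0.161). Apoe, the lipid carrier of astrocytes, was at 129 to 491 FPKM in AstroEGFR and 114 to 507 FPKM in PT, with a log2 fold change of 0.11 (SE 0.69, limma adjusted p = 0.964) whose sign changed in 6 of 16 alternatives. The median log2 fold change of the 12 tested genes of that list was -0.25, against 0.03 over all features.

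The lists downstream of the receptors held no call in PT. Of 21 tested Dab1 effectors and turnover genes, 10 had positive and 11 negative log2 fold changes, with a median of -0.03. Pik3cb, a catalytic PI3 kinase subunit, was at 10.0 to 14.7 FPKM in AstroEGFR and 4.60 to 7.32 FPKM in PT, at a limma adjusted p of 0.129 (0.0432 with the replicate block). Of 13 tested Lis1 and dynein genes 4 were positive and 9 negative, with a median of -0.13. In that list Dcx, doublecortin, was at 8.76 FPKM in PT4 and at most 0.0801 FPKM in the other 9 libraries. It is among the 4 positive genes but reached the filter on low values through PT alone, so its sign is no result. Of 8 tested Cdk5 activators and targets 2 were positive and 6 negative, with Mapt counted among the positive. Mapt, the microtubule protein tau and a target of Cdk5, was at 0.121 to 0.374 FPKM in AstroEGFR and at 7.03, 10.7, 1.41 and 49.6 FPKM across PT1 to PT4. Mapt thus passed the filter on low values through the PT libraries alone, so its sign is no result and its values are given as a description. It was at most 0.310 FPKM with added Zfp423. Of the 5 tested Reelin proteases none was called, and Adamts4 had the largest difference (1.34, SE 0.50, limma adjusted p = 0.308).

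Among 11 tested relatives of Vldlr and Lrp8 in the LDL receptor family, 7 were positive and 4 negative in PT, and 0 were called. Lrp1, a large endocytic receptor for ApoE, came closest. It was at 67.1, 45.4 and 36.4 FPKM in AstroEGFR, at 128, 168, 163 and 118 FPKM across PT1 to PT4, with 84.1, 105 and 73.5 FPKM for AstroEGFR_Zfp423. AstroEGFR was thus the lowest group without overlap, as for Vldlr, with log2 fold changes of 1.55 in PT (limma adjusted p = 0.0553, and 0.0480 with all 10 libraries) and 0.84 in AstroEGFR_Zfp423 (limma adjusted p = 0.628). Lrp2, megalin, was at 10.8, 17.7 and 3.22 FPKM in AstroEGFR and at 2.46, 4.69, 0.190 and 1.13 FPKM in PT, and passed the limma test only with the replicate block (adjusted p = 0.0300). Sorl1, a sorting receptor, had a log2 fold change of -1.69 in PT and -1.15 in AstroEGFR_Zfp423, neither past the test.

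With added Zfp423, 72 of the 83 genes were tested and 0 were called by limma. Of the 72, 3 had an unadjusted p under 0.05, beside 7.38% of all features tested. These 3 were Lrp1, Cul5, the ligase scaffold through which Dab1 is degraded (log2 fold change 0.70, SE 0.24), and Dclk1, a doublecortin-like kinase (-0.76, SE 0.23). The median log2 fold change was -0.69 over the 12 receptor partners and ligands, of which 10 were negative, and between -0.27 and 0.42 for the other 6 lists, against 0.02 over all features. Of the receptor partners and ligands Apoe, Clu and Thbs1 each changed sign in 3 of 14 alternatives, whereas Itga3 kept its sign in all 14. Apoe was at 1130, 3.39 and 64.2 FPKM in AstroEGFR_Zfp423 of batches 1, 2 and 3.

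**Figure D4:**
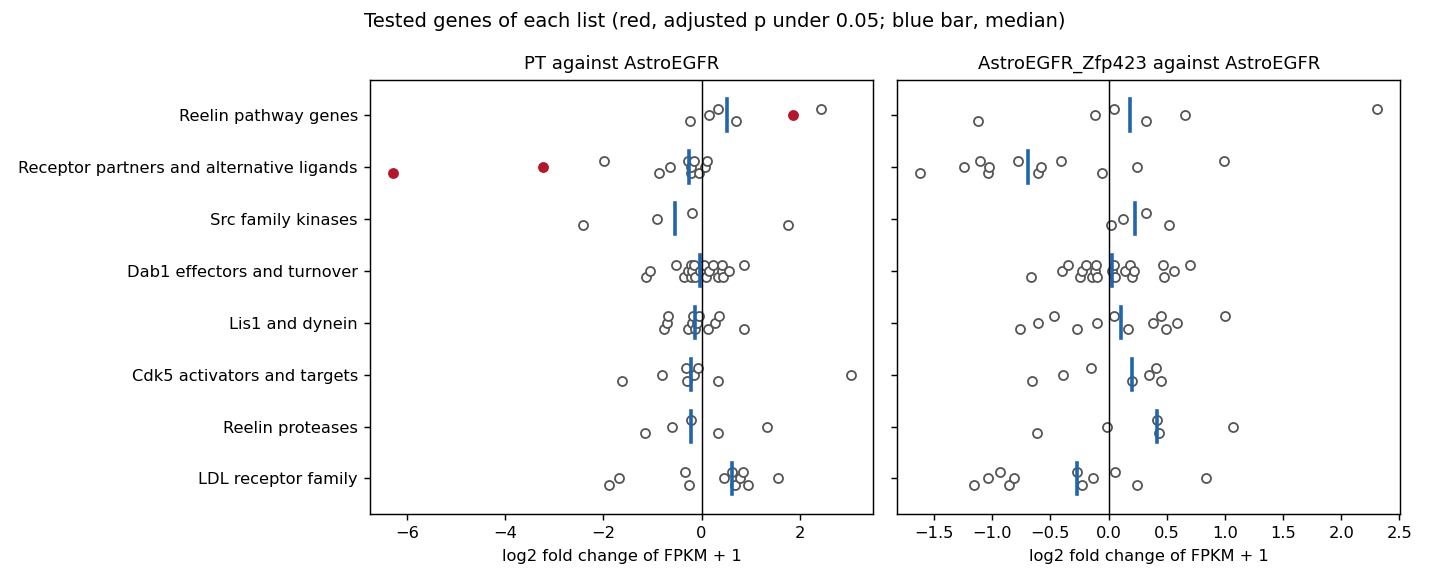
Log2 fold change of FPKM + 1 of each tested gene of the Reelin pathway and of 7 wider lists, in PT (left) and AstroEGFR_Zfp423 (right) against AstroEGFR, on linear axes of different range, without Reln and Dab1. Red points have an adjusted p under 0.05 and blue bars are medians. The left panel includes Dcx and Mapt, which reached the filter on low values through PT alone. The red points are Fyn at 1.86, Itga3 at -3.23 and Thbs1 at -6.28, all in PT.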

How the data were processed

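RNAseq of 10 cultures was used. The authors deposited 1 matrix of FPKM values per gene symbol, and the submitters' processing notes name TopHat 1.3, Cuffnorm and mm9. Kit and vector are given in conflict: a TruSeq RNA kit and a lentiviral Zfp423 vector in the labels, whereas the study's methods describe removal of ribosomal RNA, stranded libraries and a retroviral vector. All 10 columns were used. FPKM hold no counts, so no count model was fitted and the precision that depth gives is unknown.

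Differences on the log2(FPKM + 1) scale were tested in R 4.3.3 by limma 3.58.1, with a filter at a mean of 1 FPKM, a trend in the variance and Benjamini-Hochberg adjustment over all features tested, so a fold change understates that of low genes. The fits were also run on simulated data, in which spreads were capped at the median spread and no batch effect was drawn. That case is easier than these libraries. Shares and single genes were tested by exact permutation in Python 3.11.15 with scipy 1.17.1. The members, lists and tests were chosen with earlier results of these data known. The text names all 8 members and, of the wider lists, each gene called and up to 3 genes of largest change per list and comparison. Marker genes of other cell types are given as context, and 1 gene that the rule names is not reported here. Map1b and Map2 were matched to older symbols.

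The astrocyte batch pairs the libraries by the study's account. Deviations from the group means correlated at 0.346 to 0.499 between PT and AstroEGFR of 1 batch. For AstroEGFR_Zfp423 they correlated at 0.241, -0.111 and -0.262, so the values do not show that pairing in batches 2 and 3, where the other batch was the better match. Each library is 1 culture, PT1 and PT4 share a batch, and p-values measure only the spread between these libraries. The alternatives were another pseudocount (0.1), no filter, median-ratio scaling, no trend, all 10 libraries, the replicate block, batches or libraries left out, and PT1 and PT4 averaged.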

Additional observations from a re-analysis of the deposited data

Results flagged for a closer look

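In the 4 PT libraries 40 quantities were examined for 1 library far from the other 3, and 4 exceeded Dixon's 95% critical value. The measure was the gap between that library and its neighbour as a share of the whole range. It was taken on the log2(FPKM + 1) scale for genes and in percent for the Fyn share. Chance alone flags about 1 in 20 such groups. Fyn as a share of the Src family was lowest in PT2 (58.7% against 74.5% to 77.2%), at a gap of 0.852 of the range, and PT2 also held the highest Lyn of the 4 (54.1 FPKM). Dcx stood out in PT4 (8.76 FPKM against at most 0.0801), at 0.966. Thbs1 stood out in PT3 (18.5 FPKM against at most 0.986), at 0.863, and the fibroblast markers were also highest there (370 FPKM in sum). Cul5 stood out in PT2 (23.2 FPKM against 14.9 to 15.8), at 0.879, and AstroEGFR of the same batch was the highest of its group as well (23.4 FPKM).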

How the results depend on the processing

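In PT against AstroEGFR, 1 member was called as reported, 2 with the replicate block, and 0 with all 10 libraries in 1 fit, without batch 3, without batch 2 or with PT1 and PT4 averaged, and 0 to 1 when single libraries were left out. Of all features 152 were called, against 62 with all 10 libraries, 475 with the replicate block, 8 without batch 3, 63 without batch 2 and 59 with PT1 and PT4 averaged, and 7 (without AstroEGFR of batch 1) to 123 when single libraries were left out. Of the wider lists 2 genes were called, against 7 with the replicate block, 0 without batch 2, 1 without a filter, with all 10 libraries, without batch 3 or with PT1 and PT4 averaged, and 0 to 2 when single libraries were left out. Vldlr, Lrp8 and Fyn kept their direction in PT in each of 16 alternatives. The Fyn share of its family differed by 38.7 percentage points between medians in place of 31.7 between means, at an exact permutation p of 0.0571 (two-sided), and by 30.2 points with the replicate block. With a library left out no share test can go below 0.05, so those p-values say nothing about stability. With added Zfp423, 0 features were called as reported, 2 with no replicate block, 51 without batch 2 and 0 to 60 when single libraries were left out, and in each of these fits 0 members and 0 genes of the wider lists were called. In 14 alternatives the log2 fold change there stayed between 2.13 and 2.57 for Vldlr and between -1.35 and -0.97 for Lrp8, at limma adjusted p-values from 0.199 and 0.332 upward. The cause of these changes was not tested. Median-ratio scaling moved the median log2 fold change of all features by at most 0.0158.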

Other observations

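For each member whose mean reached 1 FPKM, the features of most similar level across the 10 libraries were looked up among 9698 features whose mean reached 5 FPKM, as a description over libraries that share groups, batches and depth. For Vldlr these were Arhgef2 (Pearson r 0.945), Arih2 (0.945) and Aldh18a1 (0.935), and for Fyn they were Fam136a (0.932), BC003965 (0.928) and Nhp2 (0.927). Lrp8 was followed by Fkbp2 (0.943), Ogdh (0.923) and Bcdin3d (0.922). Dab1, which was above 1 FPKM in PT2 and PT4 only, was followed by Akt2 (0.946), Pitpnc1 (0.938) and the cell adhesion gene Chl1 (0.933). The closest features were Med28 for Pafah1b1 (0.971), Dpy19l4 for Cdk5 (0.963) and Ppp1r9b, the gene of neurabin-2, for Cdk5r1 (0.952). No other member was among these features.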
